A study of Mus musculus with 15 samples.

Results

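Fabp3, Fabp4, Fabp5, Fabp9 and Fabp12, 5 genes of the fatty acid binding protein family, were followed across 15 mouse testis libraries. They were taken by their Entrez IDs from a table of 23510 gene IDs. The set was selected on the values of Fabp3, which was near 0 in the M5 libraries and in M3 replicate 3, so its values in M5 and M3 are given as a description with no test.

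The libraries fell into 5 groups of 3, all from ICR mice, an outbred stock. Con was the group labelled as control, with no treatment described. MNC testes received the control lentivirus with the shNC insert. M1, M3 and M5 testes received lentivirus with shRNAs, mixed from different positions of the transcript, against the muscarinic acetylcholine receptors Chrm1, Chrm3 and Chrm5. The virus was injected into the testes of pubertal males, so all groups except Con share the injection and the vector. The labels do not say that replicates are separate animals, and p-values measure only the spread between these samples. Whole testis was sequenced, so fewer cells of a type and less RNA per cell cannot be told apart.

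Values are FPKM, fragments mapped to a gene scaled by gene length and sequencing output, so levels of different genes can be compared. Summed FPKM was 470243 to 513817 per library, and relative depth was 0.977 to 1.013, while the absolute depth is unknown. Relative depth used only genes whose low values lay near whole steps shared by all libraries. That choice itself limits how far the estimate can spread. The receptor transcripts were too low to check the labels. Chrm5 was at 0.22 to 0.37 FPKM in M5 and 0.23 to 0.43 in MNC, Chrm1 at 0.09 to 0.14 in M1 and 0.10 to 0.11 in MNC, and Chrm3 at 0.04 to 0.11 in M3 and 0.01 to 0.05 in MNC. M5 replicate 3 stood apart in summed markers of somatic cells. Its 6 Leydig cell markers summed to 3137 FPKM (654 to 1993 in the other libraries) and its 7 Sertoli cell markers to 374 FPKM (209 to 263). Insl3 (2382 FPKM) and Ctsl (246 FPKM) made up most of these sums and were highest in this library. So were Cyp11a1, Hsd3b1, Sox9, Wt1, Gata4 and Cldn11, while Cyp17a1, Star, Lhcgr, Amh and Rhox5 were each higher in another library. M3 replicate 3 was near 0 in Fabp3 like the M5 libraries, by the choice of the gene. The genes described with Fabp3 were picked by their likeness to it. More widely, 1351 of 14514 IDs tested (9.31%) did not overlap between these 4 libraries and the other 11.

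Fatty acid binding proteins are small cytosolic proteins that hold a long-chain fatty acid or another lipid in a barrel-shaped pocket and carry it between membranes, enzymes and nuclear receptors. Each member is named for the tissue in which it is abundant: Fabp3 for heart muscle, Fabp4 for adipocytes, Fabp5 for epidermis, Fabp9 for the testis, where it is a lipid-binding protein of developing sperm. In the testis, fatty acids are built into the membranes of germ cells and burned by Sertoli cells, and triglyceride is stored in droplets.

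Fabp9, Fabp12, Fabp4 and Fabp5 lie in 1 cluster on chromosome 3 that spans 288.9 kb and also holds Pmp2, the gene of myelin protein P2, another member of the family. On GRCm38.p6, the RefSeq assembly whose UCSC name is mm10, the build in the submitters' processing notes, they are at chr3:10012585-10016610 (Fabp5, forward strand), chr3:10193623-10197283 (Fabp9), chr3:10204342-10208616 (Fabp4) and chr3:10244209-10301515 (Fabp12), the last 3 on the reverse strand. Fabp3 stands alone on chromosome 4, at chr4:130308738-130315463 on the forward strand, and its last 81 bases overlap the end of Zcchc17 on the other strand.

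The sequence around the start of Fabp3 is shown because this is the member whose level fell to the floor of the table in single libraries. It covers 250 bases before and 50 bases after the RefSeq start, chr4:130308488-130308787 on GRCm38.p6, forward strand. Capitals mark TGACG, the first letters of the cyclic AMP response element bound by the Creb and Crem factors, and TTTAAA, an A and T rich word.
Fabp3 promoter: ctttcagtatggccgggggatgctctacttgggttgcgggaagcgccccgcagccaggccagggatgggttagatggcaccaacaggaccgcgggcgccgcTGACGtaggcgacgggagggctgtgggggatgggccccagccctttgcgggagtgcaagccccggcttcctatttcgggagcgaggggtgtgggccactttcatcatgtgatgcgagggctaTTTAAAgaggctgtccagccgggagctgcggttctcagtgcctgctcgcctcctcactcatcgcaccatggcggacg
The window is 65.0% G and C, against a median of 52.7% over 32851 RefSeq promoter windows of the same length. TGACG lies 149 bases before the RefSeq start and was found, on either strand, in 20.8% of all windows. TTTAAA lies 27 bases before the RefSeq start and was found in 13.2%. GENCODE starts the gene further upstream, at chr4:130308595 inside this window. TGACG lies before that start and TTTAAA after it. The whole element TGACGTCA (1.79% of windows), TATAAA (13.6%), GGGCGG (35.7%) and CCAAT (37.4%), searched on both strands, did not match this window.

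Fabp3, the heart-type member, carries fatty acids to mitochondria in muscle. It was at 50.8, 69.3 and 67.8 FPKM in Con and at 69.0, 46.5 and 53.0 in MNC. The M1 libraries held 46.2, 51.5 and 37.7 FPKM. The 3 groups overlapped and their means were 62.6 ± 10.3 (SD, n = 3), 56.2 ± 11.6 and 45.2 ± 6.99 FPKM. In M3, replicate 1 was at 22.4, replicate 2 at 72.6 and replicate 3 was listed at 0. M5 replicate 1 was at 0.84 FPKM and replicates 2 and 3 were listed at 0. The M3 group thus held the highest value of all 15 libraries, the lowest of those above 1 FPKM, and a 0. No mean is given for M3, whose libraries do not form 1 level. By the rule that chose the gene, 4 libraries were under 1 FPKM, and the other 11 were at 22.4 to 72.6 FPKM with a median of 51.5. Between groups that the choice did not use, the difference of M1 from MNC was -0.30 on the log2 scale (95% interval -0.72 to 0.12, limma, adjusted p = 0.827), and MNC differed from Con by -0.16 (adjusted p = 0.519). Neither difference passed the test.

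**Figure D1:**
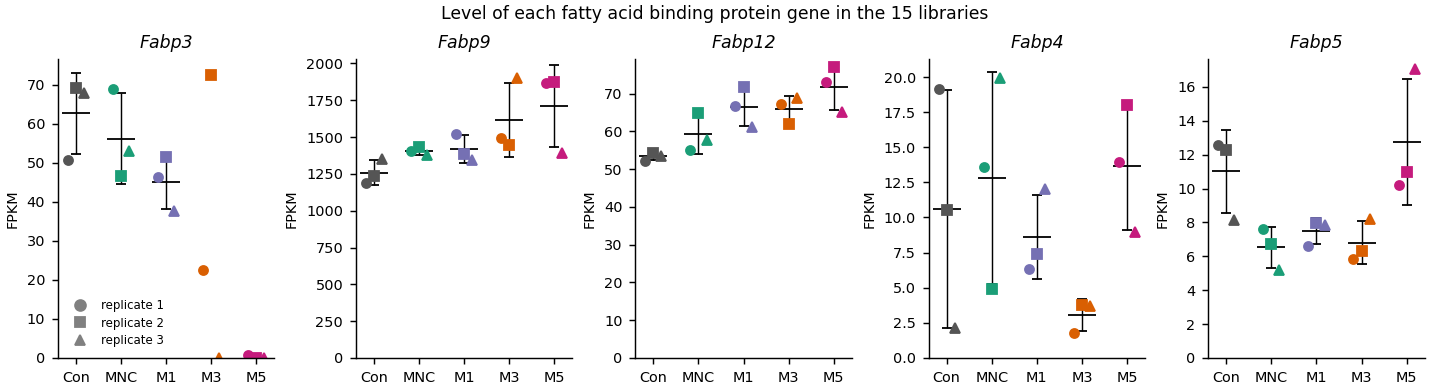
FPKM (y axis, from 0) of each gene in the 5 groups (x axis); symbols are libraries by replicate number, and bars are the mean and SD of 3 libraries, left out for Fabp3 in M3 and M5. Fabp3 was at 0 to 0.84 in M5 and at 0 in M3 replicate 3, while Fabp9 stayed between 1191 and 1903 in all libraries.

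Fabp3 is named for muscle. Of 8 striated muscle markers, Ckm, Acta1, Actc1, Mb, Tnnc1 and Myl2 were each at 0.58 FPKM or less in every library. The cardiac myosin heavy chain genes were higher, Myh6 at 0.36 to 10.48 FPKM and Myh7 at 0.16 to 1.51, both highest in the 3 Con libraries. The genes beside Fabp3 did not share its pattern. Zcchc17, which overlaps its end, was at 7.57 to 9.41 FPKM in M5 and M3 replicate 3 and at 6.24 to 9.28 in the other libraries. Snrnp40, a spliceosome gene, was at 21.9 to 23.3 and 20.7 to 31.4 FPKM, and Serinc2 at 2.26 to 3.2 and 0.95 to 3.4. In each case the low-Fabp3 libraries lay within or overlapped the range of the others.

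Of 13612 named genes, the 5 with a level most like that of Fabp3 over the 15 libraries, by Pearson r on log2(FPKM + 1), were Tmem89 (0.979), Map3k10 (0.968), Dcp1b (0.968), Prkaca (0.966) and Dot1l (0.954). These correlations rest on the 4 libraries with Fabp3 under 1 FPKM, and they share library and depth. Such a division was not rare: 1351 of 14514 IDs tested (9.31%) did not overlap between these 4 libraries and the other 11. Tmem89, a transmembrane protein gene, was listed at 0 in all 4 and at 26.4 to 47.5 FPKM in the other 11 libraries. The other four moved far less. Prkaca, the catalytic subunit of protein kinase A, was at 44.3 to 47.1 FPKM in the 4 and at 56.8 to 68.4 elsewhere. Dot1l, a histone H3 methyltransferase, was at 39.4 to 42.5 and at 55.1 to 62.5 FPKM. Map3k10, a mixed lineage kinase, was at 10.3 to 10.9 and at 14.6 to 17.4 FPKM, and Dcp1b, of the mRNA decapping machinery, at 20.8 to 22.9 and 26.9 to 28.9. Within the 11 libraries the r with Fabp3 was 0.0017 for Tmem89, 0.279 for Map3k10, 0.291 for Dcp1b, 0.650 for Prkaca and 0.0407 for Dot1l.

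The 5 most opposite genes were H2ac23 (r = -0.984), Gm21642 (-0.969), Arf4 (-0.968), Gm20594 (-0.960) and Rpl23 (-0.957). H2ac23, a histone H2A gene, was at 19.1 to 28.7 FPKM in the 4 libraries and listed at 0 in the other 11. Gm21642 was at 4.07 to 10.7 FPKM in the 4 and at 0 to 0.05 elsewhere. Arf4, a small GTPase of the Golgi, was at 79.1 to 83.3 and 66.7 to 71.4 FPKM, and Rpl23, a ribosomal protein gene, at 138 to 153 and 72.4 to 92.7. Gm20594 was at 90.9 to 103 and 24.9 to 43.2 FPKM. Fabp3 and Tmem89 were the only named genes of 14514 tested IDs that were under 1 FPKM in these 4 libraries and at 5 or more in all others, and H2ac23 and Gm21642 the only 2 IDs at 1 or more in them and under 0.1 in all others.

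**Figure D2:**
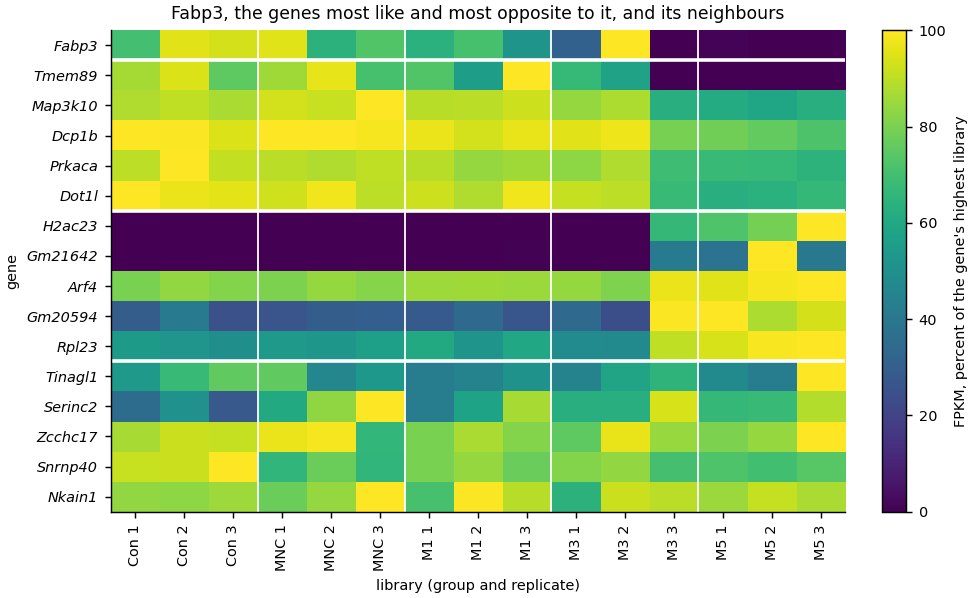
Level of Fabp3, of the 5 genes most like it, the 5 most opposite and 5 neighbours with a mean of 1 FPKM or more (rows), in the 15 libraries (columns), as a percent of the gene's highest FPKM (colour). Tmem89 was at 0 in the same 4 libraries as the low values of Fabp3, H2ac23 was listed at 0 in the other 11, and the neighbours varied without this division.

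How reads were shared between copies limits the value of Fabp3. Of the 789 words of 35 bases in its GENCODE transcripts, 370 (46.9%) also occur in transcripts of other genes, 263 of them in the processed pseudogene Fabp3-ps1 on chromosome 10. Fabp3-ps1 has no row of its own in the table, so where the authors' mapping placed such reads is uncertain. Fabp5 shares 8.59% of its words with other genes, most with Gm6166. Fabp9 shares 48.0%, all with Gm37389, a gene model that covers the same place on chromosome 3 (chr3:10179852-10197262). Fabp12 shares none, Fabp4 2 words of 4520, and no word is shared between the 5 genes.

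Fabp9, the lipid-binding protein of developing sperm, was the most abundant member and stood 14th of all genes by its mean. It was at 1191, 1236 and 1350 FPKM in Con and at 1408, 1435 and 1381 in MNC. The M1 libraries held 1524, 1385 and 1346 FPKM. M3 was at 1494, 1444 and 1903 FPKM, and M5 at 1867, 1875 and 1389. The 3 highest values, 1867 to 1903 FPKM, were M5 replicates 1 and 2 and M3 replicate 3, and M5 replicate 3 lay within the range of MNC. Con lay below MNC without overlap, and M5 overlapped MNC and M1. The difference of M5 from MNC was 0.27 on the log2 scale (95% interval -0.04 to 0.57, limma, adjusted p = 0.249) and that of M5 from Con was 0.43 (0.11 to 0.75, adjusted p = 0.0660). Without M5 replicate 3, which held the high somatic markers, Fabp9 passed in both, at 0.41 (adjusted p = 0.0180) and 0.57 (adjusted p = 0.00618), and it passed against M1, at 0.40 (adjusted p = 0.0235). The difference of MNC from Con was 0.16 (adjusted p = 0.0967), and -0.0088 with quantile normalization.

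Fabp12, a relative next to Fabp4 in the cluster that is expressed in testis and retina, was at the level of Fabp3 in Con. It was at 52.2, 54.3 and 53.6 FPKM in Con and at 55.1, 65.0 and 57.7 in MNC. The M1 libraries held 66.6, 71.8 and 61.3 FPKM. M3 was at 67.1, 61.9 and 68.7 FPKM, and M5 at 72.9, 77.1 and 65.0. All 12 injected libraries lay above all Con libraries, and the lowest M5 library (64.99 FPKM) was just above the highest MNC library (64.97 FPKM). Fabp12 was higher in M5 than in Con by a log2 difference of 0.42 (SE 0.072), with an adjusted p of 0.0119 by limma, at 71.7 ± 6.16 against 53.4 ± 1.08 FPKM (SD, n = 3). Without Con replicate 1 the adjusted p was 0.0622. Against MNC the difference was 0.27 (95% interval 0.05 to 0.49, adjusted p = 0.129), and MNC against Con was 0.15 (adjusted p = 0.162). M5 and M1 differed by 0.10 (-0.10 to 0.31, adjusted p = 0.480).

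The genes most like Fabp9 over the 15 libraries were Pafah1b1 (r = 0.955), Polb (0.940), Cdkn3 (0.938), Ccdc7b (0.936) and Ppp1r42 (0.935). Those most like Fabp12 were Sun3 (0.935), a spermatid nuclear envelope protein, Fam81b (0.931), Pms2 (0.922), a mismatch repair factor, Gm5646 (0.922) and 4921539E11Rik (0.918). The libraries also differed in markers of germ cell stages. The 8 markers of elongating spermatids summed to 11387 to 22053 FPKM in Con and to 23261 to 32392 in the injected libraries, and the sum of 6 spermatogonial markers was 60.9 to 66.9 FPKM in Con and 44.9 to 62.2 in the others. Uchl1, at 31.6 to 33.4 FPKM in Con, was the largest part of the spermatogonial sum. Over the 15 libraries Fabp9 had an r of 0.650 and Fabp12 of 0.684 with the spermatid sum, and -0.779 and -0.794 with the spermatogonial sum. With the sum of acrosome markers the r was 0.653 and 0.530, and with that of spermatocyte markers 0.040 and -0.152. The part of stage composition in their differences was not tested.

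Fabp4 is the fatty acid carrier of adipocytes and varied most among the members other than Fabp3. It was at 19.15, 10.54 and 2.16 FPKM in Con and at 13.56, 4.94 and 19.95 in MNC. The M1 libraries held 6.36, 7.42 and 12.0 FPKM. M3 was at 1.78, 3.75 and 3.67 FPKM, and M5 at 14.0, 18.0 and 8.97. Con and MNC alone covered nearly the whole range, and the 3 M3 libraries were all below the lowest MNC library. The difference of M3 from MNC was -1.63 on the log2 scale (95% interval -2.76 to -0.49, limma, adjusted p = 0.518), which did not pass. Fabp4 differed from MNC by 0.22 in M5 (adjusted p = 0.822) and by -0.39 in M1 (adjusted p = 0.905), and the direction of each turned when 1 MNC library was left out (-0.30 without replicate 2 and 0.0023 without replicate 3).

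The 5 genes most like Fabp4 were Car3 (r = 0.961), Cfd (0.961), Lpl (0.955), Retn (0.907) and Cyp2e1 (0.887). Car3 is a carbonic anhydrase abundant in fat and muscle, Cfd encodes adipsin, Lpl the lipase that frees fatty acids from lipoproteins, and Retn the adipokine resistin. Of the 7 adipocyte markers, all had a row and none was at 0 in every library. Their sum was 10.8 to 25.4 FPKM in Con, 14.9 to 31.3 in MNC, 15.99 to 20.85 in M1, 10.7 to 16.1 in M3 and 20.7 to 27.5 in M5. It followed Fabp4 with an r of 0.938 and a rho of 0.929 over 15 libraries (r = 0.933 without the 2 farthest). Cfd and Retn are in this sum, and the sum rests in part on Adipoq, which was steadier (6.47 to 13.4 FPKM). Lep, the leptin gene, was at 0.31 FPKM or less. Whether fat beside the testis entered the samples was not tested.

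**Figure D3:**
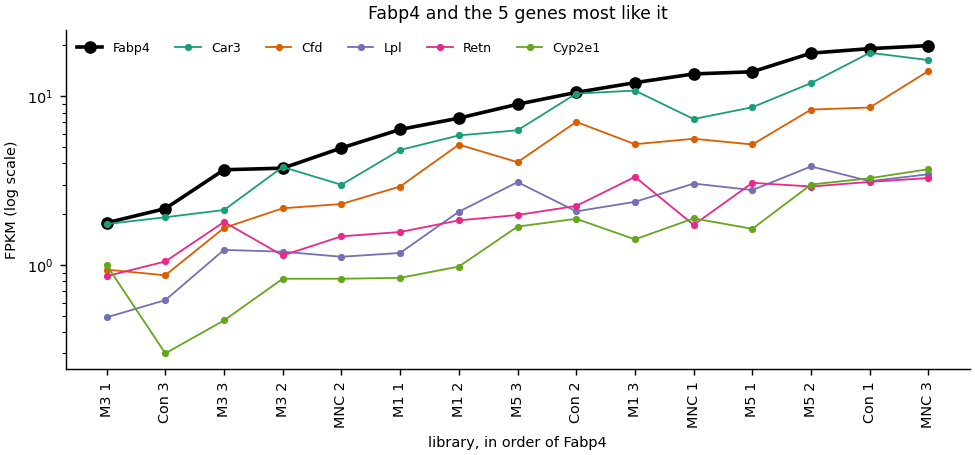
FPKM on a log axis (y) of Fabp4 and the 5 genes most like it in the 15 libraries (x), ordered by Fabp4 from M3 replicate 1 (1.78) to MNC replicate 3 (19.95). The lines climb together, and libraries of 1 group, such as the Con libraries at 2.16, 10.54 and 19.15, are spread over the order.

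Fabp5, a broadly expressed member named for epidermis that can hand retinoic acid or fatty acids to the nuclear receptor Ppard, was close to Fabp4 in level. It was at 12.6, 12.3 and 8.16 FPKM in Con and at 7.62, 6.73 and 5.22 in MNC. The M1 libraries held 6.60, 7.96 and 7.87 FPKM. M3 was at 5.82, 6.32 and 8.23 FPKM, and M5 at 10.23, 10.98 and 17.05. The M5 libraries lay above all 9 other injected libraries (5.22 to 8.23) and overlapped Con. The difference of M5 from MNC was 0.85 on the log2 scale (95% interval 0.34 to 1.36, limma, adjusted p = 0.0676), and that from M1 was 0.67 (adjusted p = 0.0849). MNC differed from Con by -0.67 (adjusted p = 0.0544), M5 from Con by 0.18 (adjusted p = 0.603). None of these passed. M5 against MNC passed with a filter at a mean FPKM of 5 (adjusted p = 0.0495), with quantile normalization (0.0448) and with all groups in one fit (0.0167).

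M5 replicate 3 held the highest Fabp5 and also the highest sums of Sertoli cell, Leydig cell, macrophage (141 FPKM) and endothelial (18.4 FPKM) markers. Without it the difference from MNC was 0.64 (limma, adjusted p = 0.0686) and that from Con turned to -0.0277. The difference from M1 was then 0.46 and passed (adjusted p = 0.0432), where 11.6% of all genes passed. Without Con replicate 3 the difference of MNC from Con was -0.85 and passed (adjusted p = 0.0398), where 9.25% of all genes passed. Over the 15 libraries Fabp5 had an r of 0.785 with the Sertoli sum (0.547 without the 2 farthest) and of 0.752 with the endothelial sum (0.710). The r was also 0.714 with the sum of myoid cell markers (0.517), 0.60 with the Leydig sum (0.191) and 0.584 with that of spermatocyte markers (0.583). With the elongating spermatid sum it was -0.48 (-0.166). The 5 genes most like it were Sema3c (0.980), a secreted semaphorin, Htatsf1 (0.952), Vbp1 (0.949), Gnai1 (0.949) and Dstn (0.944), an actin-severing factor.

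Counted over the 4 members other than Fabp3, 1 passed in 1 of 6 comparisons. In M5 against Con it was Fabp12, 1 of 4, where 21.7% of 14514 genes tested passed. No member of the 4 passed in M5 against MNC (5.65% of all genes passed), in M5 against M1 (6.75%) or in MNC against Con (20.4%). In M1 against MNC 0.0% of genes passed by limma, and in M3 against MNC 0.00689% passed, and again none of the 4 was among them. An unadjusted p under 0.05 was given by 2 of the 4 in M5 against MNC (Fabp5 and Fabp12), where 24.9% of all genes had one, by 2 in MNC against Con (40.1%) and by 2 in M5 against Con (36.3%). It was given by 1 in M5 against M1 (25.4%), by 1 in M3 against MNC (Fabp4, 9.43%) and by 0 in M1 against MNC (862 genes, 5.94%). Comparisons that use MNC, Con or M5 more than once share those libraries. Where whole groups are said not to overlap, above and below, the share of all genes without overlap is not given. Such a separation is therefore only a description.

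**Figure D4:**
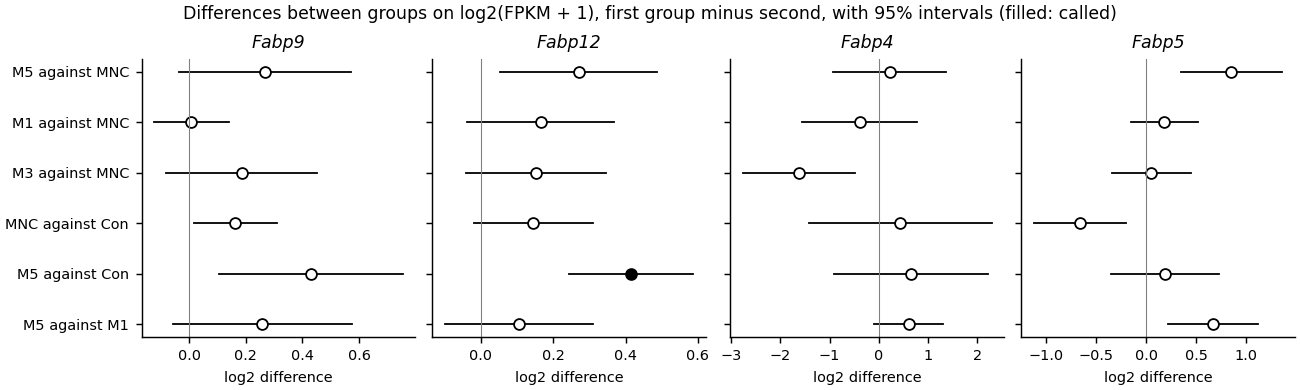
Differences between groups on log2(FPKM + 1) (x axis) for the 4 members other than Fabp3 in 6 comparisons (y axis), first group minus second, with 95% intervals of the limma fits and filled points for an adjusted p under 0.05. Fabp12 in M5 against Con (0.42) is the filled point. Of the open points, the interval lies above 0 for Fabp5 in M5 against MNC and M5 against M1, Fabp12 in M5 against MNC and Fabp9 in M5 against Con and MNC against Con, and below 0 for Fabp5 in MNC against Con and Fabp4 in M3 against MNC.

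By mean FPKM over all libraries the order was Fabp9, Fabp12, Fabp3, Fabp4 and Fabp5. In Con, Fabp12 lay within the range of Fabp3, and Fabp4 overlapped Fabp5. The other intracellular lipid-binding genes named here were low. Fabp1 was at 0 to 0.48 FPKM, Fabp2 at 0 to 0.13, Fabp7 at 0.06 to 0.51, and Fabp6 was above 0 in M3 replicate 3 alone (0.09). Crabp1, a retinoic acid carrier, had a mean of 4.44 FPKM. Pmp2, inside the cluster, passed in 1 comparison, lower in MNC than in Con by -0.39 (limma, adjusted p = 0.0257), 2.43 ± 0.146 against 3.5 ± 0.156 FPKM (SD, n = 3).

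The genes that take up, activate, burn and store fatty acids were read from 6 lists of 65 genes, all with a row, of which 50 were tested. In M5 against MNC, 5 of the 50 passed (10%, against 5.65% of all genes), all lower in M5, and the median difference of the 50 was 0.06 (0.03 over all genes). None of 9 activation genes passed, and the 2 most abundant, Dbil5 and Acsl1, had means of 1537 and 229 FPKM in M5 and 1367 and 234 in MNC. The 5 were 2 of 14 oxidation genes and 3 of 10 storage genes. Cpt1b, an outer membrane carnitine palmitoyltransferase that lets fatty acids into mitochondria, was at 103.9, 103.8 and 109.4 FPKM in MNC and at 85.7, 79.6 and 75.9 in M5, a difference of -0.39 (limma, adjusted p = 0.0281). The other was Cpt1c, its brain-type paralogue (-0.34, adjusted p = 0.0426). Pnpla2, the first lipase of stored triglyceride, was at 107.2, 106.5 and 113.5 FPKM in MNC and at 82.3, 82.1 and 82.7 in M5 (-0.40, adjusted p = 0.0169). Dgat1 (-0.42, adjusted p = 0.0317) and Dgat2 (-0.30, adjusted p = 0.0347), which make triglyceride, were lower as well. The groups did not overlap for any of these 5 genes. They were picked because they passed in these same libraries, so this adds no further support. M3 replicate 3 was below the other M3 libraries for each of them, at 90.9 FPKM for Cpt1b and 90.4 for Pnpla2. The number that passed was 0 with centring on the median (1.25% of all genes), with eBayes without trend (1.48%) and with the replicate block (0.0965%). It was also 0 without M5 replicate 1 (0.586%), M5 replicate 2 (0.241%), MNC replicate 2 (0.634%) or MNC replicate 3 (0.413%). Without MNC replicate 1 it was 1 (2.49%). Other settings kept or raised it: 8 with all groups in one fit (16.7%) and 6 with a filter at a mean FPKM of 5 (11.9%). It was 6 without M5 replicate 3 (6.52%) and 5 with quantile normalization (7.16%).

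In M5 against M1, 4 of the 50 passed (8.0%, against 6.75% of all genes). Pnpla2, Cpt1b and Dgat1 were lower in M5, by -0.36, -0.38 and -0.32, and Acsl5, an acyl-CoA synthetase, was higher by 0.30 (limma, adjusted p = 0.0407). The count was 0 with centring (1.74% of all genes) and 1 with eBayes without trend (2.65%). It was 0 without M1 replicate 1 (0.386%), M1 replicate 3 (0.586%) or M5 replicate 2 (0.93%). It was 1 without M1 replicate 2 (1.43%) and 2 without M5 replicate 1 (1.76%). The highest count without a single library was 6, without M5 replicate 3 (11.6%). The median difference of the 50 was 0.06 (0.04 over all genes). In M1 against MNC and in M3 against MNC none of the 50 passed by limma, with medians of -0.04 (-0.02 over all genes) and -0.06 (-0.04).

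In MNC against Con, 14 of the 50 passed (28.0%, against 20.4% of all genes), 7 higher and 7 lower in MNC, and the median of the 50 was -0.19 (-0.10 over all genes). Among 9 activation genes 4 were higher and 2 lower. Dbil5, an acyl-CoA binding protein of spermatids, rose from 671, 584 and 887 FPKM in Con to 1326, 1401 and 1374 in MNC (0.96, limma, adjusted p = 0.0192). Acsl5 was higher by 0.96, Acsbg2 by 0.68 and Acsl1 by 0.66, while Acsl6 (-0.34) and Acsl4 (-0.25) were lower. Of 14 oxidation genes 4 passed, all lower: Hadhb (-0.41), Hadh (-0.39), Cpt2 (-0.34) and Hadha (-0.26), enzymes of mitochondrial fatty acid oxidation. In storage, Lipe (0.67), the hormone-sensitive lipase, Abhd5 (0.35) and Dgat2 (0.23) were higher. Elongating spermatid markers also differed between these groups, as given above. With centring on the median, 7 were higher and 2 lower, and over all genes the split moved from 1166 higher and 1801 lower to 1449 and 420. The count was 0 without Con replicate 1 (0.0551% of all genes), 1 without Con replicate 2 (1.34%) or MNC replicate 2 (4.4%), and 4 without MNC replicate 3 (7.11%). The highest count without a single library was 15. It was reached among the omissions of Con replicate 3 (9.25% of all genes) and MNC replicate 1 (17.2%).

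In M5 against Con, 10 of the 50 passed (20%, against 21.7% of all genes), with a median of -0.08 (-0.04 over all genes). Acsl5 (1.13), Dbil5 (1.12), Acsbg2 (0.73) and Acsl1 (0.62) were higher in M5, and Dgat1 (-0.58), Mgll (-0.52), Cpt1b (-0.44), Pnpla2 (-0.40), Cpt1c (-0.40) and Slc25a20 (-0.34) lower. With centring on the median, 4 were higher and 2 lower, and over all genes the split moved from 1352 higher and 1791 lower to 1213 and 894. The count was 5 without Con replicate 1 (4.88% of all genes) and 17 without M5 replicate 3 (36.3%). None of the 7 uptake genes, of which Scarb1 (mean 49.7 FPKM) and Slc27a1 (10.9) had the highest levels, and none of the 6 receptor genes, with Rxra (9.02) and Nr1h3 (4.68) highest, passed in any of the 6 comparisons by limma.

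**Figure D5:**
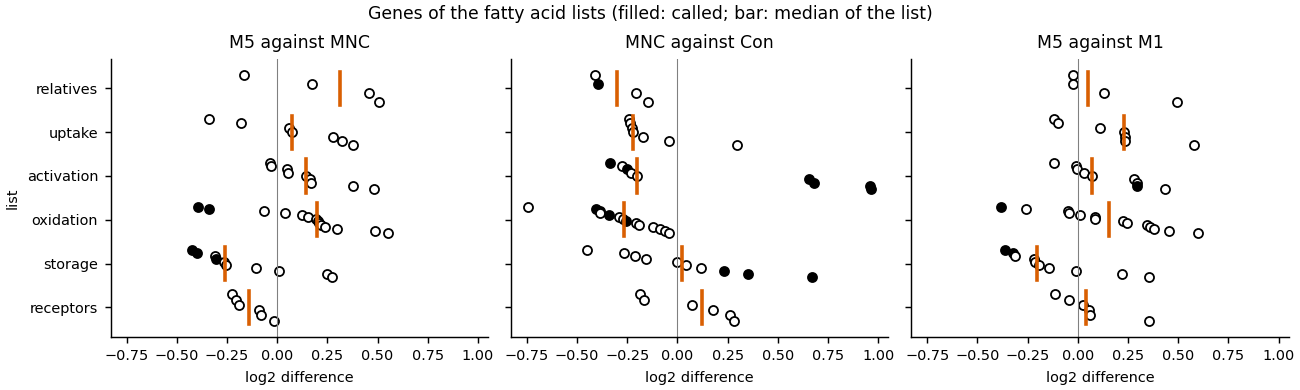
Differences on log2(FPKM + 1) (x axis) of the 50 tested genes in 6 fatty acid lists (y axis), in M5 against MNC, MNC against Con and M5 against M1; filled points passed at an adjusted p under 0.05 and the bar is the median of a list. The 5 filled points of M5 against MNC are all below 0, and in MNC against Con 7 lie on each side.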

How the data were processed

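The authors deposited 1 table of FPKM values, to 2 decimals, for 23510 gene IDs in 15 libraries. Per the study's methods, libraries of poly(A) RNA were run on an Illumina HiSeq, and SOAPaligner placed the reads on reference genes. The methods name RPKM, the columns FPKM, strandedness is not given in the sources used here, and the processing notes name mm10. Titles name testis, the extraction text sperm, and the description of M5 replicate 2 names another column, so it was mapped by title. Depth in reads is unknown, and relative depth came from the steps of low values in 66 genes. A gene was kept if its values lay within a relative tolerance of 0.08 of whole steps.

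Values were analysed as log2(FPKM + 1), which understates changes of low genes. IDs with a mean FPKM of 1 or more (14514, all 5 members among them) were fitted with limma 3.58.1 (eBayes with trend, R 4.3.3), the 2 groups of a comparison in each two-sided fit, with Benjamini-Hochberg adjustment over all IDs tested and a threshold of 0.05, here called passing. The fits were tested on simulated data. The members and gene lists were chosen with earlier results of these data known. Named genes are the members, the 5 genes most correlated with each (for Fabp3 also the 5 most opposite), the nearest genes, other relatives, and up to 4 passing genes per list and comparison with the lowest adjusted p (with none, the 2 of highest mean); further passing genes of a list were added after their values were seen. RefSeq names, positions and promoter windows (GRCm38.p6) and GENCODE transcripts came from reference tables, and 1 of 5 members had a promoter window.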

Additional observations from a re-analysis of the deposited data

How the results depend on the processing

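Each difference was recomputed with a pseudocount of 0.1, other filters, centring, quantile normalization, eBayes without trend, all 5 groups in one fit, the replicate block and leaving out each library. Of the differences of members that were tested, 364 kept direction and side of the threshold under these settings, 13 newly passed, 2 no longer passed and 11 turned. The cause of each change was not tested. Of the 4 members, with a filter at a mean FPKM of 5, 1 passed in M5 against MNC (Fabp5, where 11.9% of all genes passed), 1 in MNC against Con (Fabp5, 32.7%) and 2 in M5 against Con (31.6%). With all groups in one fit 2, 1 and 2 passed (16.7%, 21.5% and 28.6% of all genes), and with quantile normalization 1 in M5 against MNC (7.16%). Without single libraries the number was 0 to 1 in M5 against MNC, 0 to 1 in MNC against Con, 0 to 2 in M5 against Con and 0 to 2 in M5 against M1.

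With the replicate block, Fabp12 in M5 against Con kept its 0.42 (limma, adjusted p = 0.0537), so 0 members passed there, and the block changed no other call of a member. It left 0 of the fatty acid genes passing in M5 against MNC, MNC against Con and M5 against M1, where 0.0965%, 0.0689% and 0.269% of all genes passed, and 3 in M5 against Con (3.95%). Over the genes tested, the deviations of same-numbered samples from their group means correlated at -0.399 to 0.177. With 3 samples per group these values cannot settle whether the numbers pair the samples.

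With quantile normalization Fabp9 turned to -0.0896 in M1 against MNC and to -0.0088 in MNC against Con. Without single libraries Fabp4 ranged from -0.30 to 0.61 in M5 against MNC, -0.91 to 0.0023 in M1 against MNC, -0.32 to 1.01 in MNC against Con and -0.11 to 1.23 in M5 against Con, Fabp5 from -0.0798 to 0.156 in M3 against MNC and -0.0277 to 0.315 in M5 against Con, and Fabp9 from -0.0445 to 0.0451 in M1 against MNC. Without single libraries the share of all genes passing was 0.241% to 6.52% in M5 against MNC, 0.0551% to 17.2% in MNC against Con, 4.88% to 36.3% in M5 against Con and 0.386% to 11.6% in M5 against M1.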
